A study of Mus musculus with 12 samples.

Results

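Interferon response genes are genes whose transcripts rise when a cell senses an interferon, and a list of 36 of them was examined in the mouse pituitary gland. The members were found as all probes on the array, other than control features, whose gene name was 1 of the 36 listed symbols or a synonym of one. This gave 47 of 39429 probes, with at least 1 probe for each of the 36 genes and none named only through a synonym. The pituitary glands came from C57BL/6J mice, an inbred laboratory strain, and all 12 animals were females of 2 months. Early life animals had eaten a diet deficient in vitamin D during early life only, peripubertal animals had eaten such a diet during the peripubertal stage only, and control animals had eaten a normal diet. Each diet group held 4 animals, which the labels call biological replicates, and the animals are numbered 1 to 4 within a group below. The design asks how each window of deficiency affects the gland's transcripts in adult life, and it compared groups on Agilent 2-colour arrays.

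Type I interferons bind the receptor chains IFNAR1 and IFNAR2, and interferon gamma binds IFNGR1 and IFNGR2. Kinases of the JAK family then phosphorylate STAT proteins, which act at promoter elements called ISRE, where STAT2 works with IRF9, and GAS. The products include RNA sensors, oligoadenylate synthetases, IFIT proteins that bind foreign RNA, the ubiquitin-like protein ISG15, and GTPases of the guanylate-binding and immunity-related families, which are mainly known as targets of interferon gamma. Vitamin D acts through a nuclear receptor that is present in many immune cells.

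Promoter sequences are shown for 7 members. Gbp2, Gbp3, Igtp, Irgm1 and Bst2 deviated most in 1 animal described below, and Isg15 and Ifit1 are typical targets of type I interferons. The 150 bases before the transcription start were taken from RefSeq promoters of mouse build GRCm38.p6 and are written 5′ to 3′ along the gene. Capitals mark matches to GAAA-NN-GAAA, the core letters of an ISRE, on either strand, and adjoining or overlapping matches form 1 run. The stretches lie at chr3:142620513-142620662 on the plus strand for Gbp2, chr3:142559894-142560043 on the plus strand for Gbp3 and chr11:58199406-58199555 on the plus strand for Igtp. Those of Irgm1 and Bst2 lie at chr11:48871421-48871570 on the minus strand and chr8:71537473-71537622 on the minus strand. Those of Isg15 and Ifit1 lie at chr4:156200819-156200968 on the minus strand and chr19:34640739-34640888 on the plus strand.
Gbp2: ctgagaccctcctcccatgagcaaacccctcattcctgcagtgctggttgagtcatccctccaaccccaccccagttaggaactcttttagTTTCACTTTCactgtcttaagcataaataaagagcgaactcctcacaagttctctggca
Gbp3: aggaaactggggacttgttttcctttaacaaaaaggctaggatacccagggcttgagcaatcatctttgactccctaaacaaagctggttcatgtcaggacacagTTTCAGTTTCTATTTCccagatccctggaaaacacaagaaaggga
Igtp: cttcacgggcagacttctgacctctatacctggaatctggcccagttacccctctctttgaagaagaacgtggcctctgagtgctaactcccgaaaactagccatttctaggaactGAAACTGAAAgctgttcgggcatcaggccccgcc
Irgm1: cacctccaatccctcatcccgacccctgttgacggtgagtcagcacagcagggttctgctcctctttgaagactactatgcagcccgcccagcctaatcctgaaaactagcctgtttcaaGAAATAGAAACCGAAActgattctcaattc
Bst2: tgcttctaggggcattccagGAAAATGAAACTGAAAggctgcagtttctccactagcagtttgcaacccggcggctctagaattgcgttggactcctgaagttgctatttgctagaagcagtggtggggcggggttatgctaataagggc
Isg15: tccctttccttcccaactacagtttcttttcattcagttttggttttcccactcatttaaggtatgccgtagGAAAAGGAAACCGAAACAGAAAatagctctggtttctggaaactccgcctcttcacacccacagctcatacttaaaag
Ifit1: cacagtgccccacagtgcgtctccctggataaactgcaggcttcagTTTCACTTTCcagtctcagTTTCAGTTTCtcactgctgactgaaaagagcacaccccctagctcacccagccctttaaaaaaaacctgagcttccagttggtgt

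The first base of the match lay 59 bases before the start in Gbp2, 45 bases before it in Gbp3, 34 in Igtp and 30 in Irgm1. In Bst2 it lay 130 bases before the start, in Isg15 78 bases and in Ifit1 104 bases. RefSeq promoters of 300 bases, 250 of them before the start, were on hand for 27 of the 36 members. GAAA-NN-GAAA was found in 16 of these 27 genes, and in 12 of them it lay wholly before the start. Among all 27025 genes with a promoter, 3.99% held it, and among all 32851 promoters 3.44% did. TTCNNNGAA, the core letters of a GAS element, was found on either strand in 8 of the 27 members, against 9.55% of all genes and 8.30% of all promoters, and 5 members held both motifs. The members were listed as interferon targets, so this share describes the list. A match is not a measured binding site. Iigp1, Mx1, Mx2, Oas2, Rtp4, Parp9, Parp14, Usp18 and Dhx58 were not matched to a promoter.

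Each of the 6 arrays carried 2 animals of 1 group, the odd-numbered animal in the dye Cy3 and the even-numbered one in Cy5. The control arrays had a slide and a scan session to themselves, apart from the 4 arrays of the deficient groups. Effects of slide and of diet therefore cannot be told apart where control animals are involved, whereas early life and peripubertal animals shared a slide. Spots well above background made up 50.6% to 59.7% of an early life channel, 57.9% to 67.2% of a peripubertal channel and 61.0% to 66.3% of a control channel. The files disagree on the deficient groups. All 8 columns of the deposited value table that carry a deficient-group label equal a channel whose scanner file carries the label of the other such group. They equal its median signal less background within 1e-06 on the log2 scale, after a constant shift per column is taken off. The groups below follow the scanner files, and the files do not settle which labels are right. Peripubertal 4, the animal that stands apart below, is the column labelled early life 2 in the value table. Its group is therefore uncertain, and with the table's labels each early life against peripubertal difference would change sign. The comparisons with control would then exchange their deficient groups. The 4 control columns of the table equal no scanned channel and were not used.

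Of the 36 members, 34 passed the filter on dim probes, which asked for 4 or more of the 12 channels to be well above background, and 28 were well above background in all 12. No member passed through 1 group only, and no member spot was saturated. Mx1, a gene of the myxovirus resistance family, was well above background in 1 channel, of the early life group. Oas3, the gene of an oligoadenylate synthetase, was so in none, and these 2 genes were not tested. Ifi35, Parp9 and Rtp4 had no value in early life 1 and 2, and Iigp1 had none in peripubertal 3 and 4, because their spots were marked as outliers. Values are log2 intensities after normalization, given for animals 1 to 4 of a group in that order. Each gene is represented by its brightest probe, and levels of different genes cannot be set against each other. The probes of the genes described most closely lie, in mouse build mm9 as the scanner files give it, at chr3:142300719-142300778 for Gbp2, chr11:58020927-58020986 for Igtp, chr11:48679069-48679128 for Irgm1, chr8:74058603-74058662 for Bst2, chr10:127729834-127729893 for Stat2, chr16:35832992-35833051 for Parp14 and chr16:97782327-97782386 for Mx2. In whole glands, fewer cells of a type and less RNA per cell cannot be told apart.

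In 1 animal, peripubertal 4, most of the interferon response genes were higher than in the other 11. It held the highest value of all 12 animals for 21 of the 34 members (61.8%), against 5.74% of all 19085 genes kept. After removal of the dye term, 31 of its 33 measured members lay above the mean of the control animals, against 46.4% of all genes in the same animal. Their median deviation from the control mean was 0.61 on the log2 scale, and that of all genes was -0.02. The other animals had member medians of -0.20 to 0.22 in the early life group, -0.02 to 0.20 in the remaining peripubertal animals and -0.06 to 0.02 in the control group. Deviations above 1, a doubling of intensity, were seen for 7 members in peripubertal 4 (21.2%, against 0.728% of all genes there), for Irf9 in early life 2, and for no member in the other 10 animals. The 7 genes were Gbp2 (2.21), Igtp (1.81), Gbp3 (1.73), Bst2 (1.45), Irgm1 (1.22), Oasl2 (1.1) and Ifi44 (1.09). Intensities were also summed over the 30 members with a value in every animal, with the dye term left in. The sum was 64764 in peripubertal 4, 34115 to 40019 in the other peripubertal animals, 36808 to 48212 in early life animals and 35353 to 43374 in control animals. The highest early life and control sums were those of early life 2 and control 2, which like peripubertal 4 were scanned in Cy5. Bright probes weigh most in such a sum, as those of Trim25 and Ifitm3, with log2 intensities of 13.48 and 13.35 in control 2. One animal is no replicated observation, and no test was made of it against the rest.

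**Figure D1:**
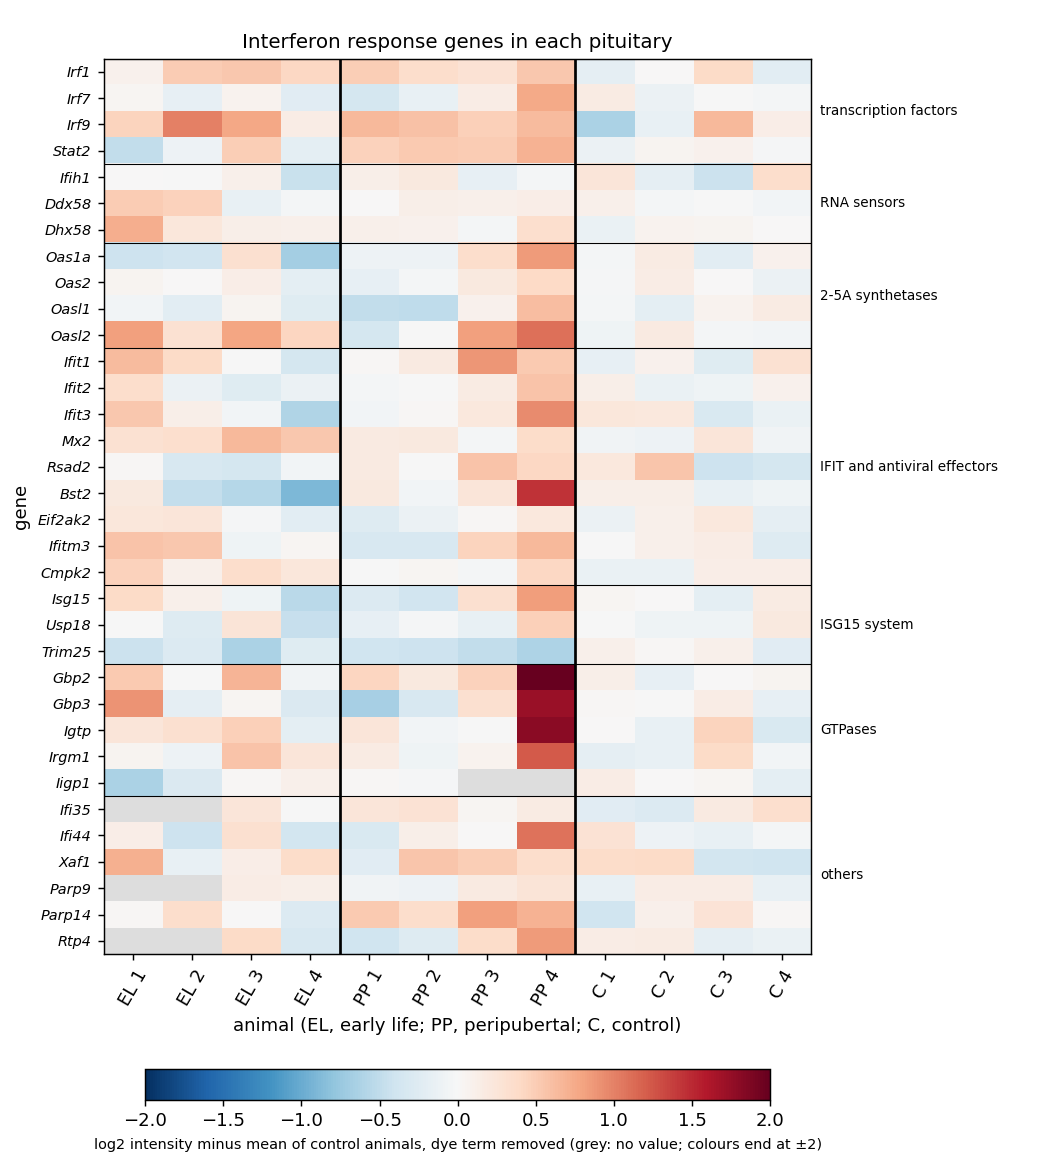
Deviation of each of the 34 kept members (vertical axis, grouped by role) from the mean of the control animals in each of the 12 animals (horizontal axis), as log2 intensity with the dye term removed. Colours end at ±2 and grey cells have no value. Peripubertal 4 is darkest red at Gbp2 (2.21), Igtp (1.81) and Gbp3 (1.73), and Trim25 is lower there (-0.61).

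The same contrast was seen within a single array, on which peripubertal 4 and peripubertal 3 were hybridised together. The median member was 0.42 higher on the log2 scale in peripubertal 4 than in peripubertal 3, with 31 of 33 members higher, while all genes had a median of -0.00086. On the other 5 arrays, the median Cy5 minus Cy3 difference of the members ran from -0.21 to 0.15. Differences above 1 were seen for 6 members on the array of peripubertal 4 and 3 (18.2%, against 0.621% of all genes there) and for none on the other 5 arrays. Differences below -1 were seen for Gbp3 (-1.02) on the array of early life 1 and 2 and for Oas1a (-1.02) on that of early life 3 and 4. The 6 members above 1 were Gbp2 (2.17), Igtp (2.17), Gbp3 (1.46), Irgm1 (1.40), Bst2 (1.37) and Ifi44 (1.16). Ifit1, which encodes a protein that binds RNA lacking cellular cap marks, was lower in peripubertal 4 than in peripubertal 3 (-0.66), as was Rsad2 (-0.21). In the deposited value table, which has no dye correction, the member median between the same channels was -0.39 and that of all genes -0.85. Among the 6 animals scanned in Cy5, peripubertal 4 was highest for 24 of 34 members, against 11% of all genes.

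**Figure D2:**
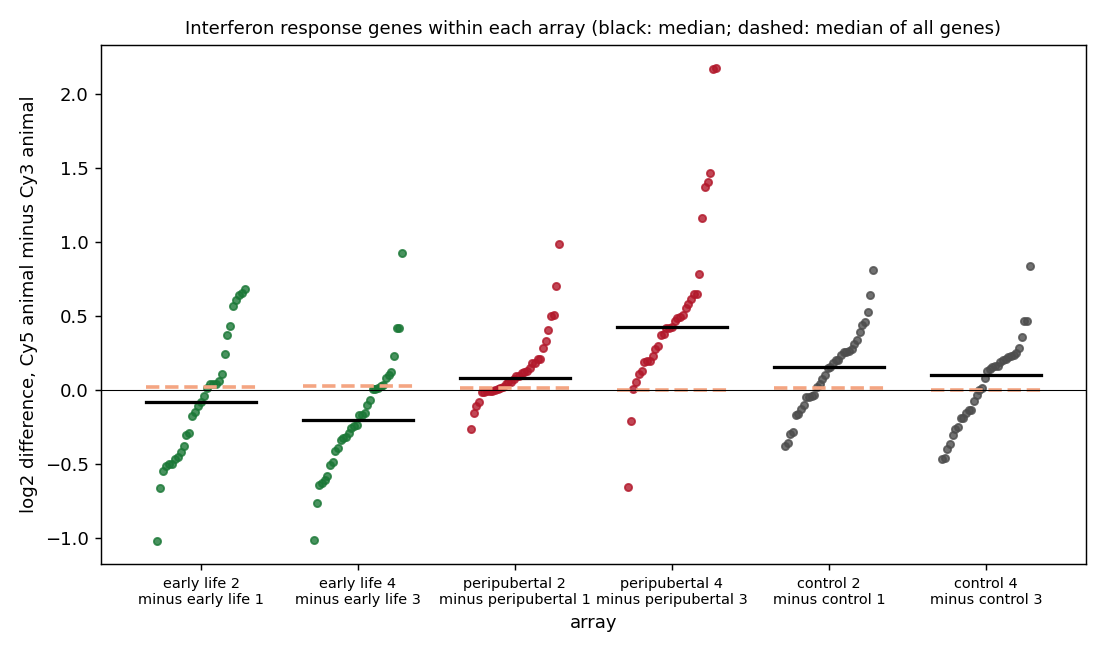
Log2 difference of each kept member between the Cy5 and the Cy3 animal of an array (vertical axis), for the 6 arrays (horizontal axis). Points are genes in rising order, black lines are member medians and dashed lines are medians of all genes. On the array of peripubertal 4 and 3 the member median was 0.42, and on the other arrays it lay between -0.21 and 0.15.

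The GTPases Gbp2 and Igtp had the widest gaps of the kept members between peripubertal 4 and the next animal, at 1.95 and 1.49, followed by Bst2 at 1.34. Gbp2 had log2 intensities of 9.70, 9.59, 9.86 and 9.53 in early life animals, 9.61, 9.79, 9.63 and 11.80 in peripubertal animals, and 9.29, 9.44, 9.18 and 9.64 in control animals. Gbp2 encodes a guanylate-binding protein that attacks the vacuoles of intracellular pathogens. Peripubertal 4 alone lay above 10, and the remaining peripubertal animals lay within the range of the early life animals. Igtp had log2 intensities of 10.48, 10.91, 10.71 and 10.39 in early life animals, 10.48, 10.53, 10.23 and 12.40 in peripubertal animals, and 10.25, 10.45, 10.68 and 10.28 in control animals. This gene, also known as Irgm3, encodes an immunity-related GTPase, and again only peripubertal 4 lay above 11. Its probe was printed in 10 spots per array, and the 8 usable spots ran from 11.98 to 12.67 in peripubertal 4 and from 9.81 to 10.42 in peripubertal 3 on the same array, without overlap.

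Irgm1 had log2 intensities of 10.27, 10.38, 10.79 and 10.72 in early life animals, 10.38, 10.39, 10.29 and 11.70 in peripubertal animals, and 10.05, 10.32, 10.61 and 10.42 in control animals. Irgm1, an immunity-related GTPase that acts on pathogen vacuoles and autophagy, was thus highest in peripubertal 4, with every other animal below 11. A second Irgm1 probe, not used in the fit, was also highest in peripubertal 4, at 10.39 against 8.85 to 9.93 in the other 11 animals. Gbp3 had log2 intensities of 10.75, 9.73, 9.88 and 9.62 in early life animals, 9.18, 9.58, 10.17 and 11.63 in peripubertal animals, and 9.87, 9.89, 9.99 and 9.74 in control animals. Here early life 1 came next to peripubertal 4, and peripubertal 1 was the lowest animal. Gbp3 encodes a guanylate-binding protein, and it and Iigp1 were taken up after their values were seen. Iigp1, which encodes another immunity-related GTPase, had 8.47, 8.84, 9.11 and 9.23 in early life animals, 9.11 in both peripubertal 1 and 2, and 9.24, 9.13, 9.13 and 8.94 in control animals. Its dimmer probe was measured on all arrays and had 10.41 in peripubertal 4, against 7.11 to 8.09 in the other 11 animals.

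**Figure D3:**
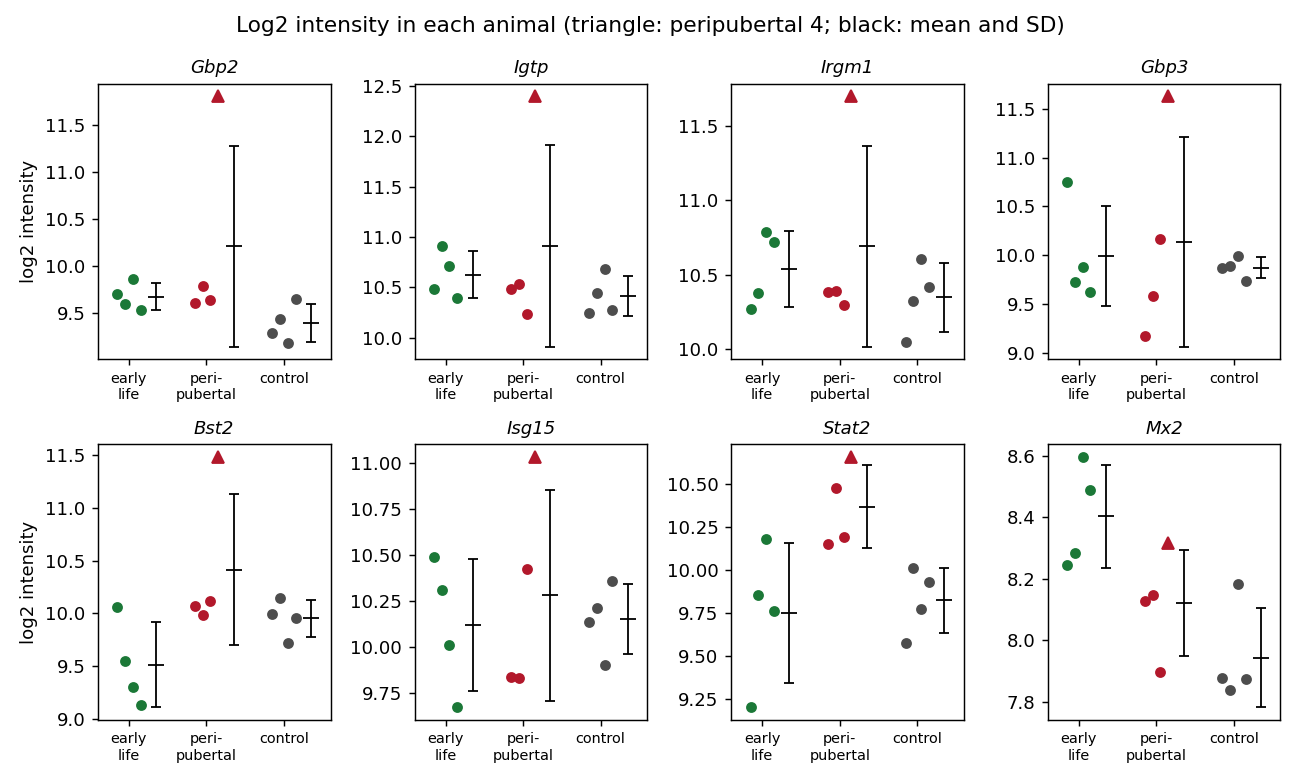
Log2 intensity (vertical axis) of 8 members in each animal of the early life, peripubertal and control groups (horizontal axis), with the group mean and SD in black (n = 4). The triangle is peripubertal 4. It lies apart from all other animals in Gbp2, Igtp, Irgm1, Gbp3 and Bst2, while in Stat2 all 4 peripubertal animals lie above the control animals and in Mx2 all 4 early life animals do.

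Of the transcription factors, Stat2 was the one whose peripubertal animals all lay above the control animals. Stat2 had log2 intensities of 9.20, 9.86, 10.18 and 9.77 in early life animals, 10.15, 10.48, 10.20 and 10.66 in peripubertal animals, and 9.58, 10.01, 9.78 and 9.93 in control animals. Its product is the STAT protein particular to type I and type III interferon signalling. The lowest peripubertal animal lay just above the highest control animal, and early life 3 overlapped the peripubertal range. Irf9 had log2 intensities of 10.87, 11.47, 11.20 and 10.62 in early life animals, 11.06, 11.05, 10.90 and 11.09 in peripubertal animals, and 9.79, 10.32, 11.06 and 10.59 in control animals. IRF9 binds DNA in the complex that holds STAT2, and both deficient groups overlapped the control group, whose lowest animal was control 1. Irf1 had log2 intensities of 11.64, 12.21, 12.10 and 12.11 in early life animals, 12.05, 12.04, 11.85 and 12.22 in peripubertal animals, and 11.39, 11.70, 11.94 and 11.48 in control animals. Irf1, an early target of interferon gamma, had its lowest value in control 1 and its highest in peripubertal 4, and the groups overlapped. Irf7 had log2 intensities of 7.42, 7.13, 7.46 and 7.07 in early life animals, 7.03, 7.14, 7.54 and 8.04 in peripubertal animals, and 7.55, 7.17, 7.39 and 7.25 in control animals. Irf7, the factor that amplifies type I interferon production, was well above background in no early life channel, in 3 peripubertal channels and in all 4 control channels, so its early life level is only a bound. Its highest value was in peripubertal 4.

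Sensors of viral RNA had their highest values outside peripubertal 4. Ddx58 had log2 intensities of 10.02, 9.94, 9.37 and 9.45 in early life animals, 9.53, 9.60, 9.61 and 9.61 in peripubertal animals, and 9.62, 9.45, 9.50 and 9.42 in control animals. Ddx58 encodes RIG-I, and early life 1 and 2, which shared an array, stood above the other 10 animals. A dimmer second Ddx58 probe did not show this, with 7.56 and 7.54 in early life 1 and 2 against 7.79 and 7.81 in peripubertal 1 and 2 and 7.46 to 7.67 in control animals. Dhx58 had log2 intensities of 8.52, 8.06, 7.91 and 7.93 in early life animals, 7.88, 7.92, 7.75 and 8.16 in peripubertal animals, and 7.66, 7.90, 7.84 and 7.85 in control animals. Dhx58 encodes LGP2, a regulator of RIG-I and of MDA5, and its early life animals all lay above the control animals by a narrow margin. Ifih1, the gene of MDA5, ran from 9.42 to 9.91 in early life animals, from 9.65 to 10.06 in peripubertal animals and from 9.39 to 10.22 in control animals.

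Active oligoadenylate synthetases make a messenger that activates RNase L, and peripubertal 4 was the highest animal for the fitted probe of all 4 kept genes of the family. Oasl2 had log2 intensities of 10.25, 10.10, 10.22 and 10.22 in early life animals, 9.09, 9.79, 10.26 and 10.91 in peripubertal animals, and 9.35, 9.99, 9.39 and 9.75 in control animals. Oasl2 encodes an oligoadenylate synthetase-like protein, and its early life animals lay close together and above the control animals, while the peripubertal animals ran from the lowest to the highest value of the 12. Oas1a had log2 intensities of 8.31, 8.32, 9.05 and 8.03 in early life animals, 8.62, 8.60, 9.08 and 9.57 in peripubertal animals, and 8.69, 8.87, 8.51 and 8.79 in control animals. The lowest Oas1a value was in early life 4. A second, dimmer Oas1a probe ordered the animals differently, with 9.74, 9.02, 7.82 and 7.27 in early life animals, 7.59, 7.67, 8.07 and 8.52 in peripubertal animals and 7.55 to 7.81 in control animals. Oas2 had log2 intensities of 7.26, 7.30, 7.33 and 7.09 in early life animals, 7.05, 7.25, 7.41 and 7.69 in peripubertal animals, and 7.18, 7.44, 7.21 and 7.17 in control animals. Oas2 was dim, being well above background in 7 of the 12 channels, and control 2 stood apart from the other control animals. Oasl1 had 8.34 in peripubertal 4 and 7.13 to 7.90 in the other 11 animals.

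Among the IFIT genes and other antiviral effectors, Bst2, the gene of tetherin, which holds budding viruses at the cell surface, had the widest range between animals. Bst2 had log2 intensities of 10.06, 9.55, 9.31 and 9.13 in early life animals, 10.07, 9.99, 10.12 and 11.48 in peripubertal animals, and 9.99, 10.15, 9.72 and 9.96 in control animals. Peripubertal 4 lay apart from its group, and the early life animals other than early life 1 lay below all peripubertal and control animals. Ifit1 had log2 intensities of 8.32, 7.77, 7.68 and 7.03 in early life animals, 7.72, 7.56, 8.57 and 7.91 in peripubertal animals, and 7.53, 7.48, 7.44 and 7.69 in control animals. The highest Ifit1 value was in peripubertal 3. Ifit2 had log2 intensities of 7.88, 7.38, 7.29 and 7.38 in early life animals, 7.49, 7.48, 7.69 and 8.06 in peripubertal animals, and 7.65, 7.36, 7.45 and 7.59 in control animals. In Ifit2, which encodes a relative of IFIT1, early life 1 stood apart from its group and peripubertal 4 was the highest animal. Ifit3 had 11.25 in peripubertal 4 and 9.70 to 10.80 in the other 11 animals.

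Mx2 had log2 intensities of 8.24, 8.28, 8.60 and 8.49 in early life animals, 8.13, 8.15, 7.90 and 8.32 in peripubertal animals, and 7.88, 7.84, 8.18 and 7.87 in control animals. Mx2 is another gene of the myxovirus resistance family, and all 4 early life animals lay above the control animals, among which control 3 stood apart. Rsad2 had log2 intensities of 8.14, 7.72, 7.75 and 7.98 in early life animals, 8.29, 8.02, 8.67 and 8.46 in peripubertal animals, and 8.32, 8.59, 7.69 and 7.69 in control animals. Rsad2 encodes viperin, which makes a chain-terminating nucleotide, and its groups overlapped. Cmpk2 had log2 intensities of 9.41, 8.90, 9.32 and 9.02 in early life animals, 8.96, 8.85, 8.92 and 9.22 in peripubertal animals, and 8.83, 8.66, 9.09 and 8.93 in control animals. Cmpk2, a mitochondrial nucleotide kinase whose gene neighbours Rsad2, was highest in early life 1, with overlapping groups. A dimmer second Cmpk2 probe had 6.97, 6.70, 7.56 and 6.89 in early life animals, 7.20 to 7.54 in peripubertal animals and 7.33 to 7.47 in control animals. Ifitm3, the gene of a membrane protein that hinders virus entry, and Eif2ak2, the gene of the kinase PKR, had their highest values in peripubertal 4 (13.89) and early life 2 (10.21).

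The ISG15 system is represented by 3 members. Isg15 had log2 intensities of 10.49, 10.31, 10.01 and 9.67 in early life animals, 9.83, 9.83, 10.42 and 11.04 in peripubertal animals, and 10.14, 10.21, 9.90 and 10.36 in control animals. Isg15 was highest in peripubertal 4, and early life 4 was the lowest animal. A dimmer second Isg15 probe was highest in peripubertal 3 (8.59) and next in peripubertal 4 (7.87). Usp18 had log2 intensities of 8.61, 8.30, 8.87 and 8.10 in early life animals, 8.45, 8.54, 8.46 and 9.04 in peripubertal animals, and 8.60, 8.47, 8.53 and 8.75 in control animals. Usp18 removes ISG15 from proteins and blocks the type I interferon receptor, and it was highest in peripubertal 4 too. Trim25 had log2 intensities of 12.49, 13.17, 12.29 and 13.21 in early life animals, 12.53, 13.03, 12.42 and 12.84 in peripubertal animals, and 13.02, 13.48, 13.02 and 13.22 in control animals. Trim25, the gene of a ubiquitin ligase that activates RIG-I, ran the other way from most members, with 3 of the 4 peripubertal animals below all control animals and peripubertal 2 overlapping them. On all 6 arrays the animal scanned in Cy5 had the higher value for the fitted Trim25 probe. A dimmer second Trim25 probe had 12.69 and 12.56 in peripubertal 1 and 2 and 12.62 and 12.55 in control 1 and 2. It had no value in the other animals and did not show the lower peripubertal level.

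Of the remaining members, Parp14, which encodes an ADP-ribosyltransferase, was higher in peripubertal than in control animals without overlap, as were 3.71% of all genes. Parp14 had log2 intensities of 8.82, 9.46, 8.81 and 8.84 in early life animals, 9.32, 9.46, 9.63 and 9.81 in peripubertal animals, and 8.41, 9.21, 9.07 and 9.14 in control animals. All 4 peripubertal animals lay above the control animals, and in the early life group animal 2 stood apart at the value of peripubertal 2. Ifi44, chosen after its values were seen, had 9.14 in peripubertal 4 and 7.63 to 8.29 in the other 11 animals. Rtp4 had 10.77 in peripubertal 4 and 9.45 to 10.24 in the other 9 measured animals. Parp9, the gene of another ADP-ribosyltransferase, Ifi35 and Xaf1, the gene of an inhibitor of XIAP, were highest in peripubertal 4 (9.64), control 4 (10.68) and peripubertal 2 (8.86). A dimmer second Xaf1 probe, well above background in 4 channels, ordered the animals differently. It had 6.84, 8.46, 9.18 and 6.86 in early life animals, 8.58, 7.01, 6.71 and 9.72 in peripubertal animals and 6.79 to 6.83 in control animals.

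Early life deficiency was set against the control diet first. None of the 34 tested members passed an adjusted p of 0.05 in limma's moderated test, with p-values adjusted over all genes by the Benjamini-Hochberg method, where 0.125% of all 18427 tested genes did (0.0597% higher and 0.0651% lower). The smallest adjusted p was 0.201, for Mx2. At an unadjusted p under 0.05, 1 member was higher and 1 lower, where 9.3% of all genes were higher and 7.99% lower. Fitted log2 differences were positive for 20 members (58.8%), against 53.5% of all genes, and their median was 0.04, against 0.03 for all genes. That median depended on single animals and arrays, being 0.18 with 26 positive members without early life 4, 0.019 without early life 3, 0.025 without early life 1 and -0.030 without the array of early life 1 and 2. Without controls 2 or 3 it was 0.090 or 0.077, without the array of controls 1 and 2 it was 0.092, and without the array of early life 3 and 4 it was 0.23. Mx2 averaged 8.40 ± 0.17 in early life and 7.94 ± 0.16 in control animals (SD, n = 4 each), a difference of 0.46 ± 0.16 (SE) with an unadjusted p of 0.0135. Trim25 differed by -0.39 ± 0.15 (limma, unadjusted p = 0.0237, adjusted p = 0.231). Irf9 differed by 0.60 ± 0.30, Oasl2 by 0.58 ± 0.31 and Irf1 by 0.39 ± 0.20, none past the threshold. Early life and control animals did not overlap for Mx2, Oasl2 and Dhx58, all higher in early life animals, and 8.19% of all genes were higher without overlap.

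Peripubertal deficiency against the control diet gave positive differences for 30 of 34 members (88.2%), against 51.4% of all 18766 tested genes, with a median of 0.18 against 0.01. No member passed the threshold, where 0.0213% of all genes did, and the smallest adjusted p in limma's test was 0.700, for Trim25. Unadjusted p-values under 0.05 were found for Parp14 and Stat2, both higher, and Trim25, lower, where 1.8% of all genes were higher and 3.33% lower (5.12% in all). Parp14 averaged 9.56 ± 0.21 in peripubertal and 8.96 ± 0.37 in control animals (SD, n = 4 each), a difference of 0.60 ± 0.21 (SE) with a limma adjusted p of 0.83. Stat2 averaged 10.37 ± 0.24 in peripubertal and 9.83 ± 0.19 in control animals, a difference of 0.55 ± 0.22 with a limma adjusted p of 0.927. Trim25 averaged 12.71 ± 0.28 in peripubertal and 13.19 ± 0.22 in control animals, a difference of -0.48 ± 0.15, and with the software's own processed signals that difference was 0.16. The second Trim25 probe, measured on only 1 array of each of these groups, did not show a lower peripubertal level. Gbp2 had the largest difference of the members, 0.82 ± 0.47, and Parp14 and Stat2 were the only members without overlap between the groups, both higher. Of all genes, 3.71% were higher without overlap and 5.54% lower.

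Most of that shift rested on peripubertal 4. Without this animal, 21 of 34 members were positive and the median was 0.03, against 0.01 for all genes. Gbp2 then differed by 0.30, Oasl2 by 0.18, Parp14 by 0.59 and Stat2 by 0.49, so the last 2 were nearly as large without the animal. Without the whole array of peripubertal 3 and 4, 17 members were positive with a median of 0.01, and the median was 0.49 when the array of peripubertal 1 and 2 was left out.

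Early life and peripubertal deficiency were compared within a slide, which gave positive differences for 10 of 34 members (29.4%), against 53.9% of all 18237 tested genes, and a median of -0.13 against 0.03. No member passed the threshold, where 0.356% of all genes did, and the smallest adjusted p in limma's test was 0.159, for Stat2. Unadjusted p-values under 0.05 were found for 3 members, all lower in early life animals, where 9.19% of all genes were lower and 20.3% passed in either direction. They were Stat2, with 9.75 ± 0.41 in early life and 10.37 ± 0.24 in peripubertal animals (SD, n = 4 each) and a difference of -0.62 ± 0.22 (SE), Parp14, with a difference of -0.57 ± 0.21, and Bst2, with a difference of -0.90 ± 0.37. Rsad2 differed by -0.47 ± 0.24, Oas1a by -0.54 ± 0.30 and Mx2 by 0.28 ± 0.16. The second Oas1a probe ran the other way, with early life 1 and 2 above all peripubertal animals. No member separated these groups without overlap, while 9.95% of all genes were lower without it. Without peripubertal 4 the median was 0.03 and 20 members were positive, while Stat2 differed by -0.56, Parp14 by -0.56 and Bst2 by -0.53. The median was -0.016 with 16 positive members without early life 4, and -0.20 without early life 3 or without peripubertal 1. Without whole arrays it was -0.056 (early life 3 and 4), -0.40 (peripubertal 1 and 2) and 0.080 (peripubertal 3 and 4). Stat2 passed the threshold without early life 3 (-0.83, limma adjusted p = 0.0186). The peripubertal animals enter the comparisons with both other groups, and the control animals likewise, so the 3 comparisons are not independent.

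**Figure D4:**
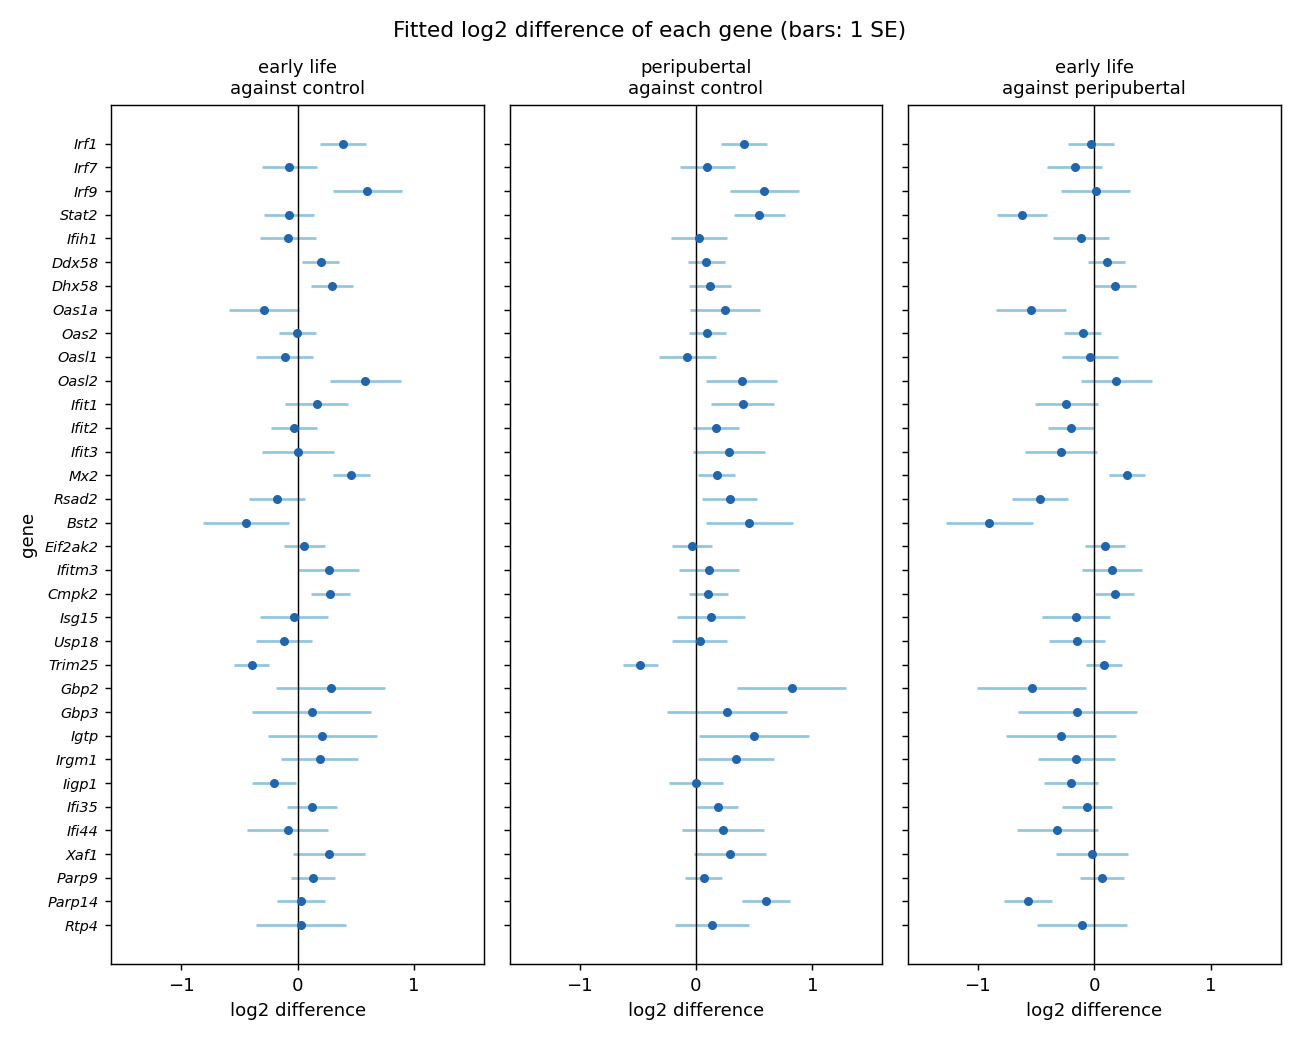
Fitted log2 difference of each kept member (horizontal axes, bars of 1 SE) for early life against control, peripubertal against control and early life against peripubertal animals, with genes in order of role (vertical axis). Positive values mean higher in the first-named group. Differences were positive for 20, 30 and 10 of the 34 members in the 3 comparisons, and no member passed the adjusted threshold.

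Across animals, members tended to deviate together. After removal of group and dye effects over the 12 animals, the median correlation of 435 pairs of 30 members was 0.35 with 77.9% of pairs above 0, and the median between a member and any other gene was -0.01 with 48.9% above 0. Over the 11 animals without peripubertal 4 the member median was 0.13, with 61.8% of pairs above 0, and without both animals of its array it was 0.12. These points share arrays and normalization, and the correlations are given as a description.

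Other interferon targets, listed separately and not members, were also high in peripubertal 4. Of 66 such genes, 62 were kept, and 52 of the 59 measured in this animal lay above the control mean, 13 of them by more than 1 on the log2 scale (22.0%, against 0.728% of all genes). It held the highest value of the 12 animals for 23 of the 62 (37.1%, against 5.74% of all genes). Early life 1 did so for 12 (19.4%), near its share of 16.1% of all genes. The median deviation of the list was 0.25 in peripubertal 4, close to the 0.24 of early life 1, and peripubertal 3 had 48 of 59 genes above the control mean with a median of 0.17. The other 9 animals had medians of -0.05 to 0.10. Genes named here were chosen after their values were seen. Tgtp2, which encodes an immunity-related GTPase, had 14.23 in peripubertal 4, 11.16 to 11.36 in the other peripubertal animals, 11.29 to 11.88 in early life animals and 10.55 to 11.14 in control animals. Ifi47, of the same family, had 10.71 against 8.59 to 9.27 in the other 11 animals. Cxcl10, the gene of a chemokine that attracts T cells, had 9.83 against 7.06 to 8.76, and Nlrc5, a transactivator of MHC class I genes, had 9.32 against 7.47 to 8.09. Psmb8, a subunit of the immunoproteasome, had 11.86 against 10.33 to 11.37, and Tap1, a peptide transporter for antigen presentation, had 8.99 against 6.99 to 7.90. No gene of this list passed the threshold in any comparison, and the smallest adjusted p was 0.0698, for Isg20 in early life against peripubertal animals (-0.98 ± 0.21). Against control, the smallest was 0.127 for early life animals (Sp110, -0.73 ± 0.18) and 0.923 for peripubertal animals (Samhd1, 0.42 ± 0.16).

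Genes upstream of the members, from the interferons to their receptors and kinases, were examined next. Of 19 listed interferon genes 15 had a probe and 7 passed the filter, and their median deviation in peripubertal 4 was -0.01. In early life against control animals, 4 of the 7 were higher without overlap, where 8.19% of all genes were. The median difference of the 7 was 0.15, against 0.03 for all genes, and none passed the threshold. All 7 were dim, with control means of 7.26 to 7.91, and were well above background in 7 to 12 of the 12 channels. Control arrays were on a slide of their own, and the part of slide or of low signal in these differences was not tested. Ifnk, the gene of interferon kappa, named after its values were seen, was well above background in 2 channels and was not kept, with 8.07 in peripubertal 3 and 8.03 in peripubertal 4, which shared an array, and 6.39 to 6.60 in the other 10 animals. Ifng and Ifnb1, the genes of interferon gamma and beta, were well above background in no channel. Ifng and Ifnb1 are named for their roles. The 6 receptor chains had a median deviation of -0.09 in peripubertal 4, and none of the 6 passed the threshold in any comparison. Of 7 kept kinases and other factors, whose median deviation in peripubertal 4 was 0.19, 11 kept sensors and adaptors and 5 kept inhibitors, none passed the threshold. Jak2, a kinase of the interferon gamma receptor, averaged 11.58 ± 0.19 in early life, 10.88 ± 0.14 in peripubertal and 10.86 ± 0.22 in control animals (SD, n = 4 each), with a limma adjusted p of 0.131 when early life was set against control and 0.0979 when it was set against peripubertal deficiency. Socs1, a feedback inhibitor of JAK kinases, had 8.74, 9.36, 10.03 and 10.10 in early life animals, 11.73, 11.91, 11.20 and 11.89 in peripubertal animals, and 10.26 and 12.44 in the 2 measured control animals. All early life animals lay below all peripubertal animals, with a difference of -2.13 ± 0.46 and a limma adjusted p of 0.0841.

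Markers of the gland and of immune and blood cells were set beside these values. All 16 listed pituitary markers, hormone genes, receptors and lineage factors, were kept, with median deviations of -0.07 to 0.16 in early life, 0.11 to 0.36 in peripubertal and -0.18 to 0.16 in control animals. Of 11 T and NK cell markers, 5 were kept and Cd3d, Cd3g, Cd8a, Gzmb, Klrb1c and Ncr1 were well above background in no channel. Their median deviation was 0.02 in peripubertal 4, and the summed intensity of the 3 complete markers was 1833 to 2151 in early life, 1706 to 1950 in peripubertal and 1819 to 2015 in control animals. Macrophage markers, 14 of 15 kept, had a median deviation of 0.09 in peripubertal 4 and 0.67 in peripubertal 3, with summed intensities of 8561 to 11911 in early life, 8567 to 17132 in peripubertal and 8571 to 14691 in control animals, and Cd163 was well above background in no channel. Neutrophil markers, 9 of 9 kept, deviated by 4.04 in peripubertal 3 and by 0.26 in peripubertal 4, with summed intensities of 1661 to 3137 in early life, 1754 to 39263 in peripubertal and 1614 to 8962 in control animals. Markers of red cells, 6 of 8 kept, were lower in early life than in peripubertal animals without overlap for all 6. Of all genes, 9.95% were lower without overlap in this comparison. The red cell markers had a median log2 difference of -1.87 and a smallest adjusted p of 0.0979 in limma's test. Of the B cell markers, 2 of 5 were kept, and Cd79a, part of the B cell receptor, had 8.90, 8.83, 9.89 and 9.85 in early life animals, 7.98 to 8.25 in peripubertal animals and 7.77 to 8.10 in control animals. Its early life animals lay above all others, with a difference of 1.23 ± 0.24 from peripubertal (limma adjusted p = 0.0568) and 1.41 ± 0.24 from control animals (limma adjusted p = 0.0513). No marker of B cells, plasmacytoid dendritic cells (3 of 5 kept) or endothelial cells (10 of 10 kept) passed the threshold in any comparison. Macrophage markers had a median difference of -0.62 in that comparison, and 2 of 14 were positive. The part of these cell markers in the early life against peripubertal differences of the members was not tested. Peripubertal 4, where the members were highest, was the highest animal for 1 of the 14 macrophage markers and none of the 6 red cell markers. It lay above the control mean for 9 of these 14 and for all 6 red cell markers (median deviation 0.54), against 46.4% of all genes. Of the neutrophil markers, Camp, Retnlg and S100a9 had no value in peripubertal 3 and 4. None of the other 6 was highest in peripubertal 4, but 5 of these 6 lay above the control mean there. The part of these cells in the member values of peripubertal 4 was not tested.

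**Figure D5:**
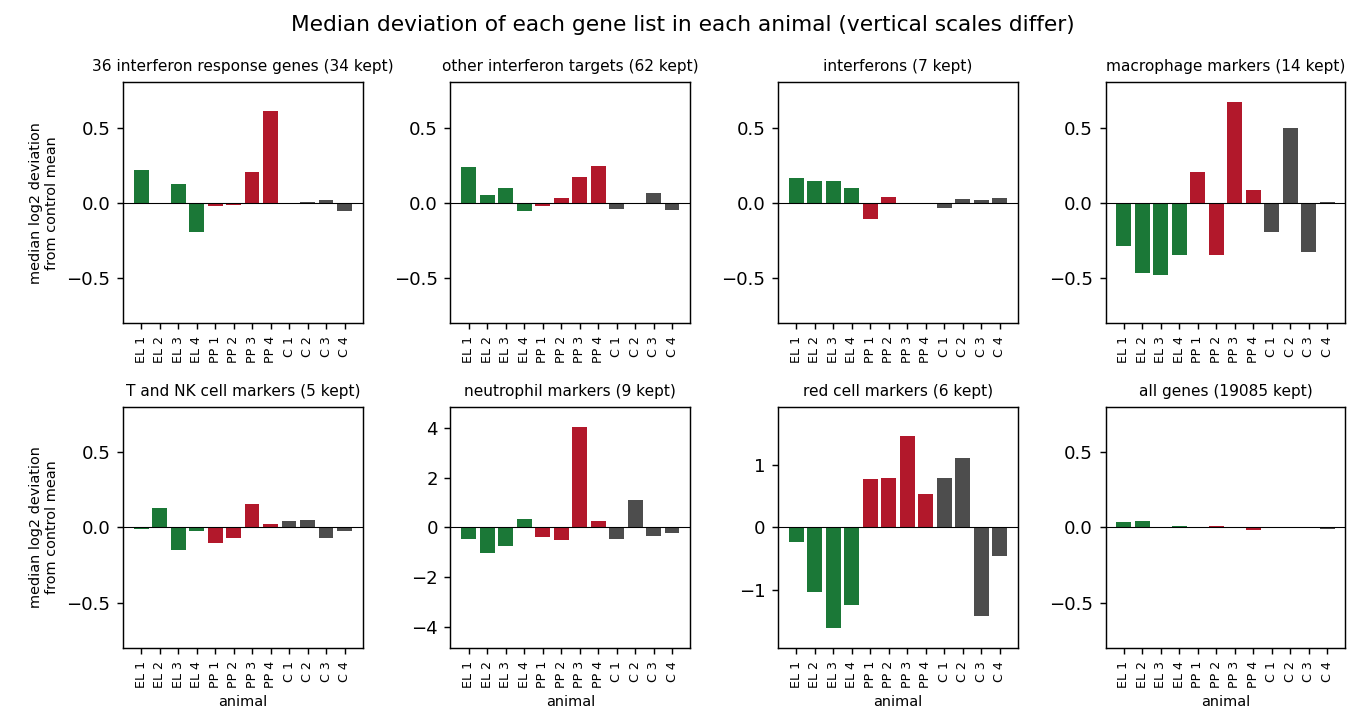
Median log2 deviation from the control mean (vertical axes, with scales that differ between panels) of 8 gene lists in each of the 12 animals (horizontal axes, EL early life, PP peripubertal, C control). The interferon response genes have their tallest bar in peripubertal 4 (0.61), whereas the neutrophil and macrophage markers have theirs in peripubertal 3 (4.04 and 0.67).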

How the data were processed

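Total RNA of 12 pituitary glands was labelled with Cy3 or Cy5 and hybridised on 6 Agilent 2-colour arrays, per the labels. In the deposited scanner files the brightness of each spot is an intensity, with background and quality marks and a processed intensity, and probe positions in mouse build mm9. Per the file headers, the software was Feature Extraction 11.0.1.1. The deposited value table gives log2 values, whose scale and centring the labels do not describe. It served only as an alternative for the deficient groups, with its columns matched to scanned channels by value.

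Of 44397 features, 1377 control features and spots marked as outliers were left out. In limma 3.58.1 under R 4.3.3, normexp (offset 50) corrected the background, loess the dyes within arrays and Aquantile the scale between arrays. Replicate spots were averaged, 24603 probes well above background in at least 4 of 12 channels were kept, and the brightest probe stood for its gene, giving 19085 genes. Groups were compared with limma's lmFit and eBayes (two-sided), in a model of group and dye that treated the array as a random block (correlation 0.306, 8 residual degrees of freedom). Adjusted p-values are Benjamini-Hochberg values across all tested genes. Only the group comparison was tested on simulated log2 values, and the steps before it were not. Deviations are log2 values less the dye term and the control mean, whereas summed intensities keep the dye term. Precision is limited by the number of arrays: a member's log2 difference had a median SE of 0.24.

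The members, lists and tests were chosen with earlier results of these data known. Values in every animal are given for the 8 members of smallest p in each comparison, for Irf7, Irf9, Stat2, Ifit1 and Isg15, and for members in which 1 animal stood apart from its group by Dixon's ratio. Of other lists, the 2 genes of smallest p per comparison could be named. Alternatives were other background, scaling, filter, probe and outlier settings, other blocks, the value table and leaving out animals or arrays.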

Additional observations from a re-analysis of the deposited data

Results flagged for a closer look

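Dixon's ratio marked 9 of the 98 member and group combinations with 4 values, each through an animal far above the other 3 of its group, and chance marks about 1 in 20. Peripubertal 4 accounted for 5 of the 9. It had log2 intensities of 9.04 for Usp18 (8.45 to 8.54 in the other 3 peripubertal animals), 11.80 for Gbp2 (9.61 to 9.79), 11.48 for Bst2 (9.99 to 10.12), 12.40 for Igtp (10.23 to 10.53) and 11.70 for Irgm1 (10.29 to 10.39).

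In the early life group, animal 1 had 7.88 for Ifit2 (7.29 to 7.38 in the other 3) and animal 2 had 9.46 for Parp14 (8.81 to 8.84). In the control group, animal 3 had 8.18 for Mx2 (7.84 to 7.88) and animal 2 had 7.44 for Oas2 (7.17 to 7.21). Oas2 and Ifit2 were dim, with a signal well above background in 7 and 11 of the 12 channels.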

How the results depend on the processing

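No member passed the threshold under any setting that kept all animals. Leaving out single animals gave 0 to 1 passing member in early life against peripubertal animals, with medians of -0.20 to 0.033 and 10 to 20 positive members (16 without early life 4 and 20, with the median of 0.033, without peripubertal 4). Leaving out single animals gave no passing member against control, with medians of 0.02 to 0.18 for early life and 0.03 to 0.27 for peripubertal animals. Without the array of early life 3 and 4, Ddx58 passed against control (0.48, limma adjusted p = 0.0260, 1 member), and Stat2 and Ddx58 passed against peripubertal animals (adjusted p = 0.00864 and 0.0434, 2 members). Without the array of early life 1 and 2, the early life against control median was -0.030 and Ddx58 was -0.087. Without the array of peripubertal 1 and 2 the median was 0.49 in peripubertal against control animals and -0.40 in early life against peripubertal animals. Without that of peripubertal 3 and 4, 17 members were positive and Oasl2 was -0.18 in peripubertal against control animals, and early life against peripubertal gave a median of 0.080 with 21 positive members. Averaging a gene's probes turned Cmpk2 to -0.038 (early life against control) and -0.049 (early life against peripubertal), and processed signals turned Trim25 to 0.16 (peripubertal against control). The cause of these turns was not tested.

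Median centring moved the median of all genes by over 0.1, to 0.17 (early life) and 0.14 (peripubertal) against control, where members had 0.21 and 0.31. Peripubertal 4 was highest for 17 to 23 members under 8 background, scaling, filter, probe and outlier settings, chosen after seeing the data, and its median difference from peripubertal 3 was 0.42 to 0.55. In the value table, which has no dye correction, that difference was -0.39 (all genes -0.85), and the animal was highest for 6 members over 8 columns but for 24 of 34 over its 4 Cy5 columns, where 24.2% of all genes were. Among the 6 Cy5 animals in the scanner files it was highest for 24 members (11% of all genes).

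Calls over all genes numbered 23 (early life against control), 4 (peripubertal against control) and 65 (early life against peripubertal). In the same order they were 131, 20 and 172 with averaged probes, 606, 20 and 1324 without the array block, and 0, 0 and 1 for genes well above background in all 12 channels. After removal of group and dye effects, same-numbered animals of different groups correlated at -0.285 to 0.0594 over 12 pairs. Such animals share a dye, so the removal itself shifts these values, and they cannot decide whether the numbers mark pairs. With a replicate block the members' medians were 0.03, 0.18 and -0.15, the positive members 19, 31 and 9, no member passed, and 10, 0 and 6 genes passed in all. With 4 animals a group, small differences of dim genes such as Irf7 and Oas2 were not detectable.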
